A study of Mus musculus with 2 samples.

Results

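Pericytes and the smooth muscle cells of larger vessels, together called mural cells, were looked for among the cells of mouse brain tumors, and 55 of the 54574 barcodes that passed quality control met the rule for them. The rule kept a barcode when at least 2 of the genes Kcnj8, Abcc9, Rgs5 and Higd1b had a unique molecular identifier (UMI, 1 counted RNA molecule), when Pdgfrb or Notch3 had one, when the endothelial genes Cldn5 and Cdh5 had none, and when C1qa, C1qb and C1qc together, and Olig1 and Olig2 together, had at most 3. The tumors were orthotopic, grown in the striatum of C57BL/6J mice from mouse glioblastoma stem cells (mGSC) of genotype Trp53+/- and Nf1+/-, and both groups carried the same tumor genotype. One group received vehicle and the other Xevinapant, a SMAC mimetic that antagonises inhibitor of apoptosis proteins, by oral gavage each day, and the labels give no age for the mice. Each group was 1 pool of 4 matrices of UMI counts. The labels name GBM stem cell as the cell type, whereas mural cells come from the host.

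Mural cells wrap the endothelial tube. Pericytes sit on capillaries inside the basement membrane that they share with endothelial cells, and smooth muscle cells ring arterioles and venules and set their width by contraction. Endothelial PDGF-B recruits both through the receptor PDGFRβ, and signalling through the receptor NOTCH3 keeps them in place and mature. In brain they take part in the blood-brain barrier, and in glioblastoma vessels their cover is irregular. Kcnj8 and Abcc9 encode the subunits of an ATP-sensitive potassium channel of pericytes, and Rgs5 a regulator of G protein signalling.

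Before the results, the samples need to be described. The 8 matrices held 56943 barcodes with 71835789 to 300206053 UMIs each. Matrices Vehicle 1 and 3, Xevinapant 1 and 2, and Xevinapant 3 and 4 were far more alike than other pairs. Their mean squared difference in expression, measured over tumor cells, was 1.39, 3.94 and 4.81 in units of sampling noise. It was 18.1 to 62.6 for the 9 other pairs within a group and 14.4 to 68.6 for the 16 pairs across groups. The Xevinapant pairs thus differed by more than sampling noise. Each such pair was therefore counted as 1 sample, which left 3 vehicle and 2 Xevinapant samples. The study's methods describe 4 mice in each group, but nothing in the labels ties a matrix to a mouse and 6 of the 8 matrices form such pairs, so the p-values measure the spread between samples, part of which may be technical. Pool, batch date and the RNA type named in the labels go with the treatment, so none of them can be told apart from it. The Xevinapant sample holds matrices named for vehicle, and every comparison of treatments rests on the sample's label. The 2 groups shared 1413 barcode strings, which came from different runs, and no string occurred in more than 1 matrix of a group. Of the 55 mural cells, 14 lay in a droplet that also held a barcode of another matrix.

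The 55 mural cells were found in every sample. There were 13 in vehicle 1+3, 4 in vehicle 2, 8 in vehicle 4, 13 in Xevinapant 1+2 and 17 in Xevinapant 3+4. Their depth ran from 680 to 47464 UMIs with a median of 6859, and their summed depth was 107086, 25280 and 74435 UMIs in the vehicle samples and 178270 and 208717 UMIs in the Xevinapant samples. Vehicle 2 is therefore the least precise of the samples, and 54.9% of its UMIs came from 1 cell.

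The members were chosen by measured UMI counts, those of the 4 rule genes and of Pdgfrb, Notch3, Cldn5, Cdh5 and the C1q and Olig genes, so these values are a description. All 4 were detected in 21 members, 3 in 15 and 2 in 19. Another 113 barcodes met every other condition with exactly 1 of the 4 genes, at a median of 11860 UMIs against 6925 UMIs for the members with 2. Of the 108 barcodes that met the conditions on mural and endothelial genes, 10 were left out by the C1q genes and 43 by the Olig genes. Those 43 had a median Olig sum of 33 and a highest sum of 182, whereas 39 of the members had a sum of 0 and 2 members had a sum of 3. Just outside the limit, 2 barcodes had a sum of 4 and 1 had a sum of 5.

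**Figure D1:**
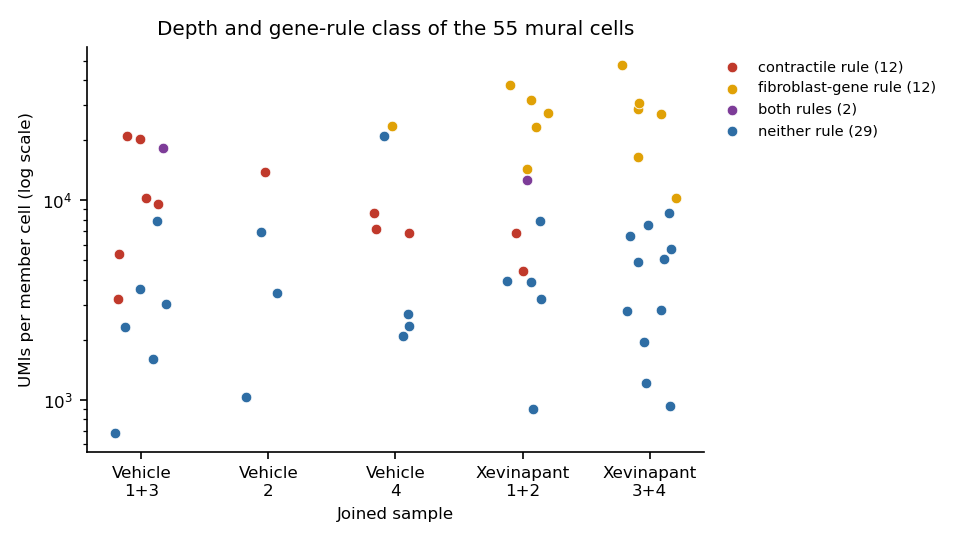
UMIs per cell (log scale) of the 55 mural cells by joined sample, each point being 1 cell, coloured by the gene rule it met. Members that met the fibroblast-gene rule alone ranged from 10272 to 47464 UMIs and 11 of these 12 came from Xevinapant samples, while 10 of the 12 that met the contractile rule alone came from vehicle samples.

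The label was then checked against genes that the rule did not use. Values are CPM, the counts of the summed cells of a sample scaled to a common total, given as the mean ± SD over the 5 samples, and each gene is compared only with itself in other cells. For that purpose 185 endothelial cells, 417 fibroblasts, 32377 tumor cells and 2771 macrophages were gated from the same barcodes by their own genes, all with fewer than 2 of the 4 mural genes. The endothelial and tumor gates share with the mural rule the genes that separate them, so these contrasts carry no test.

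Of 27 further pericyte genes in the files, 18 had their highest mean CPM in the mural cells, compared with 1716 of all 19059 genes. Rgs4, another regulator of G protein signalling, stood at 503 ± 157 CPM against 24.2 CPM in fibroblasts, the next highest class. Cox4i2, a subunit of cytochrome c oxidase, stood at 287 ± 94.1 CPM and Art3 at 401 ± 158 CPM, with the next class at 18.7 and 40.6 CPM. S1pr3, a receptor for sphingosine-1-phosphate, averaged 1009 CPM but with an SD of 1089, since vehicle 2 held 2927 CPM and the other samples 296 to 795 CPM. Mcam, an adhesion molecule of vessels, was higher in endothelial cells at 1593 CPM than in mural cells at 1203 ± 582 CPM, and Cspg4, the NG2 proteoglycan, was at 482 ± 250 CPM in mural cells and 545 CPM in tumor cells. Vtn, widely used as a brain pericyte marker, was at 64.7 ± 56.3 CPM and was detected in 15 members, while Atp13a5, Ggt1 and Zic1 were at 0 UMIs in every member. With 593788 UMIs in all, a count of 0 allows up to 3 UMIs, for counting error only.

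Genes that act in vessel tone were mostly higher in the mural cells as well, 13 of 20 in the files. The list includes the rule genes Kcnj8 and Abcc9, whose high level follows from the choice of the cells. Gucy1a1 and Gucy1b1, the 2 subunits of the nitric oxide receptor guanylate cyclase, averaged 309 ± 174 and 173 ± 116 CPM, with the next class at 12.4 and 28.7 CPM. Ednra, the receptor for endothelin, averaged 396 ± 128 CPM and had no UMI in the gated endothelial cells, whereas Ednrb, the other receptor, averaged 49.9 CPM in mural cells and 366 CPM in endothelial cells. Of 18 contractile genes, 17 were highest in mural cells, with Pln the exception at 0 UMIs. These include Acta2, smooth muscle actin, at 3718 ± 5077 CPM, and Des, the intermediate filament desmin, at 400 ± 308 CPM. The SD was above the mean for Acta2 and near it for Des. Acta2 stood at 12698 CPM in vehicle 2 and at 493 to 2447 CPM in the other samples. One cell held 315 of the 321 Acta2 UMIs and 21 of the 23 Des UMIs of vehicle 2. Contractile genes also differed between members, as described further on.

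The genes with the largest ratio of mural CPM to the highest other class, at a mean of at least 100 CPM, were Olfr78, Higd1b, Myh11, Lmod1, Egflam, Trarg1, Kcnj8, Actg2, Dlk1, Synpo2, Gucy1a1, Cnn1, Rgs5, Rgs4 and Parm1. Higd1b, Kcnj8 and Rgs5 are rule genes. Higd1b, a small mitochondrial protein of pericytes, was at 283 ± 133 CPM against 1.97 CPM in endothelial cells. Egflam, the matrix protein pikachurin, was at 181 ± 78.5 CPM against 3.33 CPM in fibroblasts, and Dlk1, a Notch-like ligand, at 465 ± 320 CPM against 16.6 CPM. Olfr78, an olfactory receptor gene, rested on 6 members, and Cnn1, the contractile gene calponin, on 4. The ratios of these 2 genes therefore say little about the other members. Actg2, Lmod1 and Myh11 came from 1 cell in vehicle 2, at 5973, 396 and 2017 CPM. In the other samples they stood at 38.3 to 644, 33.5 to 140 and 62.3 to 349 CPM, so their ratios also lean on that cell.

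**Figure D2:**
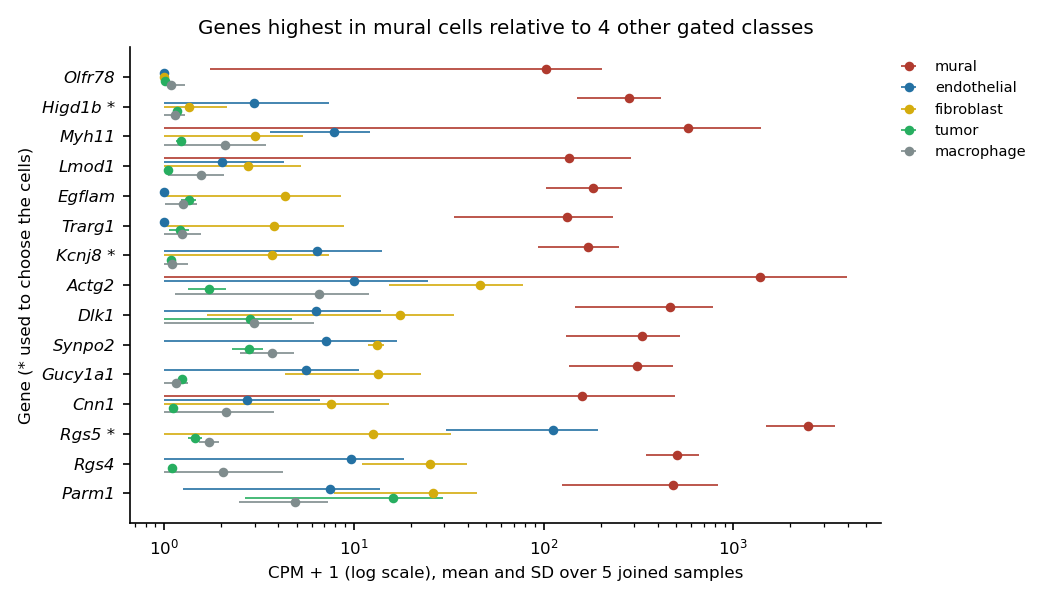
CPM + 1 (log scale, mean and SD over 5 joined samples) of the 15 genes with the largest ratio of mural level to the highest of 4 other gated classes, where an asterisk marks genes that chose the cells. Rgs5 is the highest of them in mural cells at 2473 CPM, and Egflam is at 181 CPM with 3.33 CPM in fibroblasts.

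Ligands and receptors divided between mural and endothelial cells. Pdgfrb, a rule gene, was at 1331 ± 230 CPM in mural cells and 5.53 CPM in endothelial cells, while Pdgfb, which encodes its ligand, was at 4.11 CPM in mural cells and 526 CPM in endothelial cells. Pdgfa, another ligand, was higher in mural cells than in the other classes, at 380 ± 229 CPM. Notch3, also a rule gene, was at 906 ± 457 CPM, and its target Heyl was at 236 ± 215 CPM against 23.5 CPM in the next class. Dll4, a Notch ligand of endothelial cells, had 1.12 CPM in mural cells and 821 CPM in endothelial cells. Jag1, a Notch ligand, averaged 287 ± 194 CPM in mural cells and 208 CPM in endothelial cells, which differ by less than the SD between samples. Of 15 angiopoietin and VEGF genes, 1 was highest in mural cells and 10 in endothelial cells. The receptor genes Tek and Kdr stood at 1.12 and 20.0 CPM in mural cells, but Flt1, which encodes VEGFR1, stood at 609 ± 793 CPM and was detected in 35 members.

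Basement membrane genes were shared with endothelial cells. Col4a1, a chain of type IV collagen, was detected in all 55 members at 9643 ± 4863 CPM, and endothelial cells held 9227 CPM. Of 24 such genes 8 were highest in mural cells, 10 in endothelial cells and 5 in fibroblasts. Col15a1 was at 1407 ± 671 CPM against 693 CPM in the next class, and Hspg2, which encodes perlecan, at 1058 ± 423 CPM against 2390 CPM in endothelial cells. Of 36 interstitial matrix genes 8 were highest in mural cells and 24 in fibroblasts. Col1a1 was at 50119 ± 27377 CPM in the members and 62426 CPM in fibroblasts, and at 18963 ± 17275 CPM without the members that carried fibroblast genes, which are described further on and held 84.9% of its UMIs.

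Markers of other cells were measured in the members. The 7 neuron and 8 lymphocyte markers were at 0 UMIs in every member. Endothelial markers, 12 genes, summed to 712 to 2453 CPM in vehicle samples and 374 to 454 CPM in Xevinapant samples, a mean of 8.30% of the level in gated endothelial cells, with Cldn5 and Cdh5 at 0 by the rule and Pecam1 detected in 3 members. The 13 myeloid markers in the files reached 0.940% of the macrophage level. The 17 tumor markers summed to 187 to 2593 CPM in vehicle samples and 421 to 422 CPM in Xevinapant samples, a mean of 9.09% of the tumor level, with Neu4 at 0. These 3 lists hold genes that the rule capped, the C1q and Olig genes among them. Without the rule genes the means were 10.3% for endothelial, 1.55% for myeloid and 10.6% for tumor markers. Vehicle 4 held the highest sum of tumor markers and also of the 7 astrocyte markers, 3654 CPM against 65.4 to 746 CPM in the other samples. The 6 oligodendrocyte markers summed to 9.34 to 119 CPM and the 6 erythrocyte markers to 0 to 242 CPM, with Mog, Mobp and Hba-a1 among those at 0.

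Fibroblast markers were different. The 12 genes summed to 9573 to 79105 CPM in vehicle samples and 119914 to 129450 CPM in Xevinapant samples, a mean of 76.0% of the level in gated fibroblasts, with Slc6a13 at 0. The collagens Col1a1 and Col1a2 made up most of these sums. By this measure the label holds for the members as a whole only with the addition that a number of them carried fibroblast genes.

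The members were accordingly sorted by 2 further gene rules. The contractile rule asked for Myh11, the smooth muscle myosin, and at least 2 of Cnn1, Actg2, Lmod1, Des and Pln. The fibroblast-gene rule asked for at least 2 of Dcn, Lum, Dpt and Fbln1, which encode small matrix proteins of fibroblasts, and for Col1a1 or Col1a2. The first was met by 12 members alone, the second by 12 members alone, both by 2 and neither by 29. These rules need several genes in 1 cell and so favour deep cells. The median depth was 7940 UMIs in the contractile members, 27210 UMIs in the fibroblast-gene members and 3195 UMIs in those that met neither rule.

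**Figure D3:**
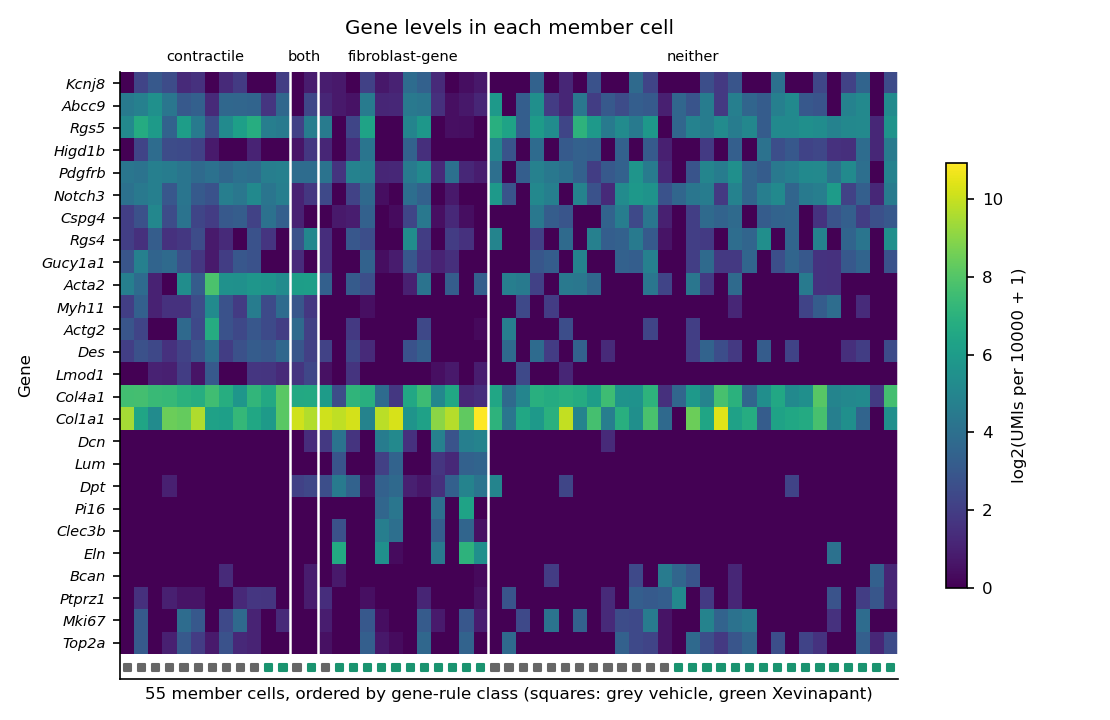
Level of 26 genes, as log2 of UMIs per 10000 + 1, in each of the 55 member cells, ordered by gene rule, with grey squares for vehicle and green squares for Xevinapant cells. Acta2, Myh11 and Actg2 were detected in 11, 12 and 10 of the 12 cells of the contractile block, and Dcn, Lum, Pi16, Clec3b and Eln fill parts of the fibroblast-gene block, of which 11 of 12 cells are from Xevinapant samples.

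The contractile members held the smooth muscle genes that the rule did not use. Acta2 was at 4976 CPM in their summed counts, against 553 CPM in the members of neither rule and 467 CPM in the fibroblast-gene members. Tagln, an actin-binding protein of smooth muscle, was at 2280, 419 and 254 CPM in the same order. One cell of vehicle 2 held 315 of the 585 Acta2 UMIs and 168 of the 268 Tagln UMIs of the 12 contractile members, and without it, a comparison added after the values were seen, they stood at 2604 and 964 CPM. The contractile members also had the highest Rgs5 of the 3 sets, 4449 CPM, and the highest Cspg4, 970 CPM. They lacked Dcn and Lum. Rgs4 ran the other way among these sets, with 298 CPM in contractile members, 295 CPM in fibroblast-gene members and 1019 CPM in the members of neither rule.

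The fibroblast-gene members had less of the mural genes per UMI and had some genes of fibroblasts at or above the fibroblast level. Notch3 was at 270 CPM and was detected in 7 of the 12, against 1659 CPM and 12 of 12 in the contractile members. Rgs5 was at 1261 CPM and Pdgfrb at 1017 CPM, against 11.6 and 314 CPM in gated fibroblasts, but the cells were unlike each other. Rgs5 had 218, 91, 52 and 30 UMIs in 4 of the 12 cells, 9 in another and 0 or 1 in the other 7. These 4 cells had no UMI of Lum, Pi16 or Clec3b. In 6 of the 7 cells with 0 or 1 Rgs5 UMI, Notch3 was also at 0 or 1, while Dcn had 24 to 136 UMIs and Lum 6 to 50, and Pi16 lay in 4 of these 6. Pi16 and Clec3b, genes of adventitial fibroblasts that the rule did not use, were at 1227 and 634 CPM and at 0 UMIs in the contractile members and in the members of neither rule, and gated fibroblasts held 184 and 101 CPM. Col1a1 was at 89907 CPM. When each cell was thinned to 3000 UMIs, 4 of these 12 still met the mural rule, compared with 11 of the 12 contractile members and 14 of the 16 members of neither rule that were deep enough. The values of the 6 cells, all from Xevinapant samples, go against the mural name, and the whole set is called by its rule here. These cells stay in every value over all members, the treatment comparison included. Where mural cells are counted or compared in this report, all members are meant.

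The members of neither rule had Rgs5 at 2670 CPM, Notch3 at 1635 CPM and Pdgfrb at 1730 CPM, against 4449, 1659 and 1778 CPM in the contractile members. They had the highest sum of tumor markers of the 3 sets, 1936 CPM against 247 CPM in contractile and 333 CPM in fibroblast-gene members. One cell of vehicle 4 with 21077 UMIs and no Rgs5 held 47 of the 61 UMIs of the tumor marker Bcan in this set. Another 7 lay in a cell of Xevinapant 3+4 with 7547 UMIs, 1 Rgs5 UMI and 0 Pdgfrb UMIs. For both cells the mural name is in doubt. The members of neither rule also held the most astrocyte marker counts, 2489 CPM.

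The rule for counting cells with a UMI was compared with cells that should lack these genes. At 3000 UMIs per cell, 9 of 42 members (21.4%) met the contractile rule, against 0 of the gated tumor cells and fibroblasts, 1.25% of endothelial cells (1 of 80) and 0.0590% of macrophages (1 of 1694). The fibroblast-gene rule was met by 7 of 42 members (16.7%), 70.5% of fibroblasts, 1.83% of macrophages, 1.25% of endothelial cells and 0.188% of tumor cells.

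Many smooth muscle genes are known to be read under serum response factor, which binds CArG boxes in their promoters. RefSeq promoter windows of GRCm38.p6 were at hand for 14 of the 18 contractile genes, and the 250 bases before the start site were searched for a CArG box, which is CC, 6 bases that are A or T, and GG. The box reads the same on the other strand, so 1 search covers both. A strict box was found for 1 of the 14, compared with 1.48% of 32536 different windows, and 2 of the 14 had a box when 1 of the 6 middle bases was allowed to be C or G, compared with 8.59% of windows. The windows of these 2 genes, Acta2 and Myl9, the regulatory myosin light chain, are shown because they hold a box. The genes stood at 4976 and 1182 CPM in the contractile members. Capitals mark the boxes, which are described only as letters. The first window is chr19:34255374-34255623 on the minus strand and the second is chr2:156775214-156775463 on the plus strand.
Acta2: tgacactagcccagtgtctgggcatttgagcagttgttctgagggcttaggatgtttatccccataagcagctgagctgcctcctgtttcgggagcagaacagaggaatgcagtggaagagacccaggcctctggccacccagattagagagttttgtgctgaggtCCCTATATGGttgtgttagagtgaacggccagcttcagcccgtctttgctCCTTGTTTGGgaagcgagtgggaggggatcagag
Myl9: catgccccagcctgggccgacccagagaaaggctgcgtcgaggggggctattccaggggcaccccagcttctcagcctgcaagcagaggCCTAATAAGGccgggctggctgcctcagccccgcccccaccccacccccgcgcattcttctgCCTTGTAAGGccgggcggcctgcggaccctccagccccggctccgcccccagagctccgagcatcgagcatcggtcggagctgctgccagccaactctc
The 2 boxes of Acta2 begin 84 and 34 bases before the start site, and those of Myl9 begin 161 and 99 bases before it.

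The design compares Xevinapant with vehicle. The first question was whether the number of members differed, fibroblast-gene members included. Their share of all barcodes after quality control was 0.146% in vehicle 1+3, 0.0561% in vehicle 2 and 0.0559% in vehicle 4, and 0.147% in Xevinapant 1+2 and 0.112% in Xevinapant 3+4. The groups overlap, and the means of 0.0860% ± 0.0520 (SD, n = 3) and 0.129% ± 0.0246 (SD, n = 2) differed by less than the spread between samples (exact two-sided permutation test, p = 0.3). With 3 samples against 2 this test cannot go below 0.1. Per 100 gated endothelial cells there were 59.1, 22.2 and 23.5 mural cells in the vehicle samples and 28.3 and 26.2 in the Xevinapant samples (exact permutation p = 1). The difference of -7.74 in the means turned to 4.33 without vehicle 1+3. Without the fibroblast-gene members there were 12, 4 and 7 members in the vehicle samples and 7 and 11 in the Xevinapant samples. The gated endothelial cells numbered 22, 18 and 34 in vehicle and 46 and 65 in Xevinapant samples. By these counts the ratio was lower in each Xevinapant sample than in each vehicle sample, which was not tested. Fewer cells of a type in the tumor and fewer cells recovered from it cannot be told apart.

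The second question was whether the share of members meeting each rule differed. The contractile rule was met by 7 of 13, 1 of 4 and 3 of 8 members in the vehicle samples, or 53.8%, 25.0% and 37.5%, and by 3 of 13 and 0 of 17 in the Xevinapant samples, or 23.1% and 0%. The groups do not overlap by a narrow margin, and the exact permutation test gave p = 0.2. The 0 of 17 in that sample allows a share of up to 17.6%, for counting error only. The fibroblast-gene rule was met by 1 of 13, 0 of 4 and 1 of 8 vehicle members, or 7.69%, 0% and 12.5%, and by 6 of 13 and 6 of 17 Xevinapant members, or 46.2% and 35.3%. Here the groups lie further apart, and the p of 0.1 is the smallest this exact permutation test can give. The separation holds for the joined samples only. By single matrix, 1 to 4 in order, the shares were 0, 0, 25 and 12.5% in vehicle and 25, 80, 50 and 22.2% in Xevinapant, which overlap. Among the original members thinned to 3000 UMIs, 6 of 18 vehicle and 3 of 24 Xevinapant members met the contractile rule, and 0 of 18 and 7 of 24 met the fibroblast-gene rule. These counts pool the cells of a group over its samples, and cells are not replicates, so they carry no test. When every barcode was thinned and the mural rule itself was applied again, 17 barcodes entered that had not been members, and the differences became 5.45 and -3.33 percentage points. The second then rested on 1 cell in vehicle 4 and 0 in each other sample.

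**Figure D4:**
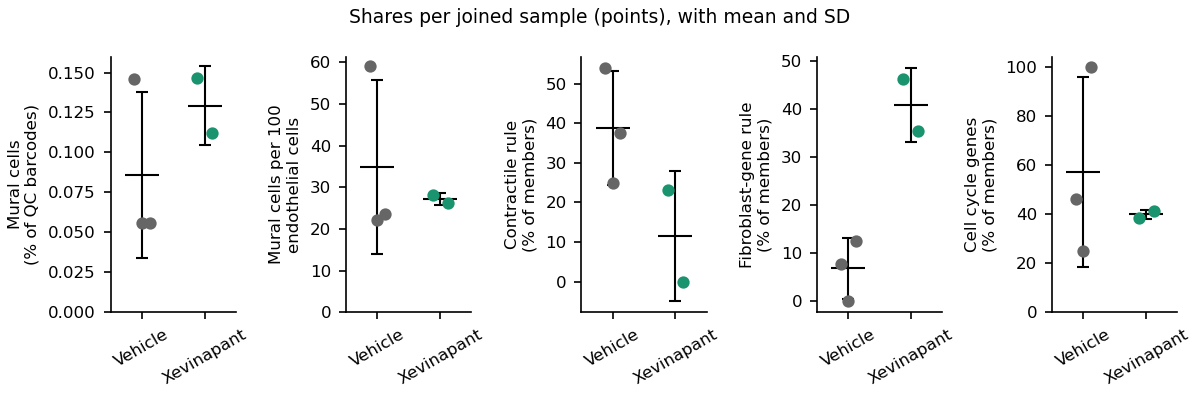
Shares per joined sample (points) with the mean and SD of 3 vehicle and 2 Xevinapant samples, for the share of mural cells, mural cells per 100 endothelial cells, and the percent of members meeting the contractile, fibroblast-gene and cell cycle rules. The fibroblast-gene share is 0 to 12.5% in vehicle and 35.3 to 46.2% in Xevinapant samples, while the shares of mural cells overlap.

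Cell cycle genes were the third question. At least 2 of Mki67, Top2a, Cdk1, Ccnb1 and Cenpf were detected in 6 of 13, 1 of 4 and 8 of 8 vehicle members and in 5 of 13 and 7 of 17 Xevinapant members, with no difference beyond the spread between samples (exact permutation p = 0.8). Vehicle 4, where every member had such genes, was also the sample with the highest sum of tumor markers, and the part of these markers in the count was not tested. At 3000 UMIs the share was 31.0% of mural cells, 30% of endothelial cells and 56.2% of tumor cells. None of the 33 cell cycle genes in the files had its highest mean level in mural cells.

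The last question was which genes differed between treatments over all 55 members, those that met the fibroblast-gene rule included. The comparison had been set for samples with at least 10 members, which leaves 1 vehicle sample, and so it has values but no test. A fit of all 5 samples, chosen after the cells had been counted, was added, and it includes vehicle samples of 4 and 8 cells. By edgeR's quasi-likelihood test on summed counts with Benjamini-Hochberg adjustment, 51 of 2855 genes (1.79%) were higher after Xevinapant and 0 were lower, with 219 genes at an unadjusted p under 0.05, of which 63 were lower. DESeq2 called 55 higher and 3 lower. Of the 51 genes, 19 had no UMI in any vehicle member and 20 had 1 to 3. Those 19 could pass the low-count filter only through the Xevinapant samples, whose members held 386987 UMIs against 206801 in vehicle. The split of 51 against 0 depends on that filter, as edgeR without it called 144 genes higher and 26 lower. Gated fibroblasts, which are not members, were 42 of 9079, 13 of 7135 and 71 of 14310 barcodes in the vehicle samples and 199 of 8868 and 92 of 15182 in the Xevinapant samples. The share of these fibroblasts was not tested. Their median depth was 6479 UMIs in vehicle and 9508 UMIs in Xevinapant cells, and their part in the called genes was not tested. All 51 genes lay without overlap between the groups, as did 22.3% of the genes tested.

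The 51 genes are known mostly from fibroblasts and matrix, and 45 of them had a higher mean CPM in gated fibroblasts than in endothelial, tumor and macrophage cells, against 577 of the 2855 genes tested. Eln, which encodes elastin, had 0 UMIs in all 3 vehicle samples, and 282 and 671 UMIs in the Xevinapant samples, where 7 cells carried it. This is at least 169.757-fold higher, taking 3 counts over the vehicle group as the floor. Such bounds are for counting error only and leave out the spread between cells and between samples. Pi16 had 0 UMIs in the vehicle samples and 105 and 286 UMIs in the Xevinapant samples from 4 cells, at least 69.6-fold higher. Lum, which encodes the collagen-binding proteoglycan lumican, had 0 UMIs in the vehicle samples and 57 and 89 UMIs in the Xevinapant samples, at least 26-fold higher.

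Other genes of the same kind had a few vehicle counts. Dcn, which encodes decorin, had 0, 1 and 6 UMIs in the vehicle samples and 234 and 305 in the Xevinapant samples, a log2 fold change of 5.45 ± 0.91 (SE, edgeR adjusted p = 0.0125). Dpt, dermatopontin, had 12, 0 and 12 UMIs against 135 and 203, a log2 fold change of 3.25 ± 0.70 (edgeR adjusted p = 0.0496). Igf1, an insulin-like growth factor, had 6, 0 and 1 UMIs against 57 and 36, with 3.14 ± 0.66 (edgeR adjusted p = 0.0429). By edgeR without TMM neither was called, at an adjusted p of 0.0997 for Dpt and 0.0837 for Igf1, and Dpt was not called without doublets (adjusted p = 0.051). Neither Dpt nor Igf1 was called by edgeR at 5% mitochondrial UMIs (adjusted p = 0.0588 and 0.05015). The same held without the deepest member of each sample (edgeR adjusted p = 0.0795 and 0.139). By edgeR with 1 sample left out, Igf1 was not called without vehicle 2, vehicle 4 or Xevinapant 1+2 (adjusted p = 0.0658, 0.139 and 0.726), nor Dpt without vehicle 4, Xevinapant 1+2 or Xevinapant 3+4 (adjusted p = 0.0507, 0.194 and 0.208). Dcn, Lum and Dpt belong to the fibroblast-gene rule, so their change and the share of members meeting that rule are the same cells counted in another way.

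Further named genes were given by their summed UMIs. The complement gene C3 and Ccn3, a matricellular protein, had 0 vehicle UMIs and 302 and 300 Xevinapant UMIs, at least 53.795-fold and 53.4-fold higher, for counting error only. Gas6, a ligand of TAM receptors, had 0 and 258 UMIs, and Lbp, the lipopolysaccharide-binding protein, 0 and 247 UMIs. For the Wnt-binding genes Sfrp1 and Sfrp2 the counts were 0 against 238 and 1 against 941, and for Clec3b, the tetranectin gene, and Mfap5, a microfibril protein, 0 against 202 and 0 against 173. The ratio for Sfrp2 was 503 with a 95% counting interval of 90.0 to 19883. Several of these were uneven within the treated group, with 818 and 123 Sfrp2 UMIs, 259 and 41 Ccn3 UMIs, 229 and 29 Gas6 UMIs, and 205 and 33 Sfrp1 UMIs in Xevinapant 1+2 and 3+4. Ccn3, Gas6 and Sfrp1 were not called by DESeq2 (adjusted p = 0.121, 0.214 and 0.163) or, by edgeR, without Xevinapant 1+2 (adjusted p = 0.0852, 0.341 and 0.203). Col14a1, a fibril-associated collagen, had 3 vehicle and 198 Xevinapant UMIs, Tgfbr3, the TGF-β co-receptor, 2 and 89, the cytokine gene Il33 1 and 47, and the connexin gene Gja1 1 and 125. By edgeR without TMM, Il33, Gja1 and Gas6 were not called (adjusted p = 0.0751, 0.0528 and 0.0528). By edgeR, Tgfbr3 and Il33 were not called without Xevinapant 1+2 (adjusted p = 0.650 and 0.662), Il33 without Xevinapant 3+4 (0.390), and Gja1 without vehicle 2 (0.0681) or vehicle 4 (0.0573).

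The called genes lay in the fibroblast-gene members. These 14 members, those that met both rules included, held 10520 UMIs of the 51 genes and the other 41 members held 204. The 14 were not alike. Among them, Eln, Pi16 and Clec3b were detected only in the 6 Xevinapant cells whose values go against the mural name. Dcn had 24 to 136 UMIs in those 6 cells. Members of the 14 with 30 or more Rgs5 UMIs had 0 to 6 Dcn UMIs and none of Eln or Lum. A fit without only those 6 cells was not run. For each of the 51 genes at least 85.0% of the UMIs were in the fibroblast-gene members, with a median of 99.1%, whereas these members held 58.9% of all UMIs. They made up 20.2% of the vehicle and 79.6% of the Xevinapant UMIs. Without them, edgeR called 0 of 1054 genes, with 35 at an unadjusted p under 0.05, and none of the 51 had enough counts to be tested. With at least 3 of the 4 mural genes required, 0 of 2040 genes were called, with 91 at an unadjusted p under 0.05 and 2 of the 51 tested. Without vehicle 1+3, all 51 were tested and 0 of 2915 were called, with 233 at an unadjusted p under 0.05. The log2 fold changes of Eln, Lum and Dcn were then 11.23, 8.56 and 4.62, against 11.23, 8.56 and 5.45 with all samples. Those of Tgfbr3, Il33 and Igf1 moved further, from 4.746, 4.615 and 3.14 to 7.932, 6.957 and 4.742.

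**Figure D5:**
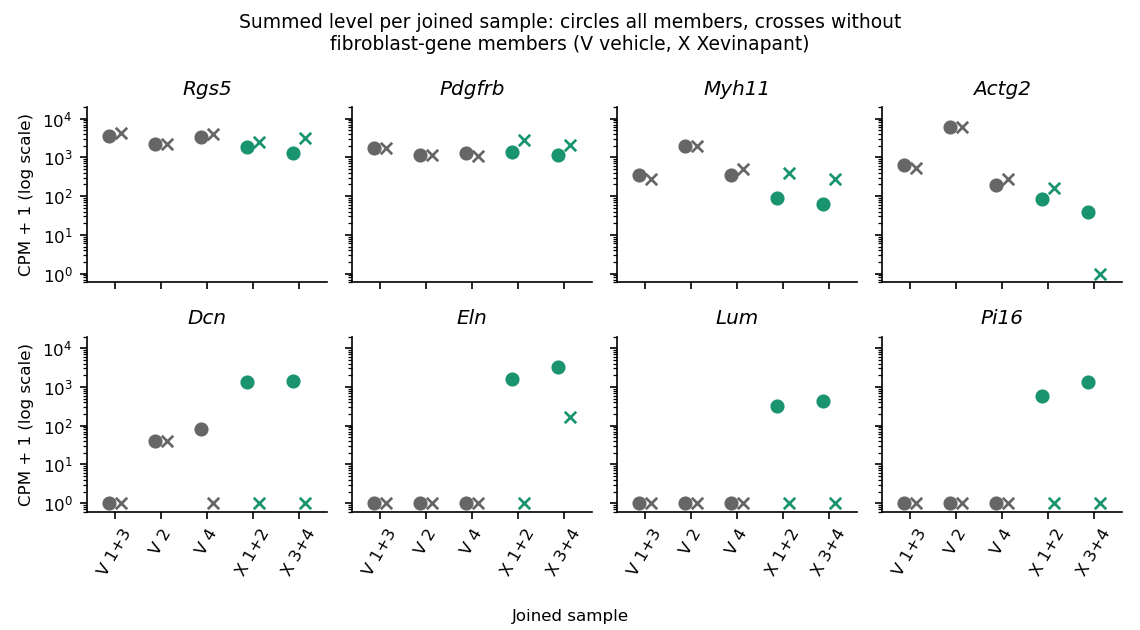
CPM + 1 (log scale) of 8 genes summed over the members of each joined sample, with circles for all members and crosses without the fibroblast-gene members, grey for vehicle (V) and green for Xevinapant (X). Lum and Pi16 are at 0 in the vehicle samples and fall to 0 in the Xevinapant samples without these members, and Pdgfrb overlaps between the groups when all members are summed, at 1147 to 1700 CPM in vehicle and 1150 to 1397 CPM in Xevinapant.

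The genes that chose the cells are given by sample as a description, with no test. Rgs5 was at 3577, 2215 and 3386 CPM in the vehicle samples and 1879 and 1308 CPM in the Xevinapant samples. Without the fibroblast-gene members its Xevinapant values were 2515 and 3117 CPM, inside the vehicle range. Pdgfrb was at 1700, 1147 and 1263 CPM in vehicle and 1397 and 1150 CPM in Xevinapant samples, where the groups overlap. Without the fibroblast-gene members it was at 1768, 1147 and 1060 CPM against 2740 and 2141 CPM, where they do not. Kcnj8, Abcc9, Higd1b and Notch3 overlapped between the groups over all members. The summed level of the 27 further pericyte genes overlapped over all members, at 8479, 8386 and 5186 CPM in vehicle and 6928 and 6324 CPM in Xevinapant samples. Without the fibroblast-gene members the sums were 9461, 8386 and 6184 CPM against 13701 and 12885 CPM, without overlap and without a test. Values without these members rest on 12, 4 and 7 vehicle cells and on 7 and 11 Xevinapant cells with 31019 and 48119 UMIs. The share of all genes without overlap in this set is not given here, so the separation is a description only.

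The contractile genes were lower after Xevinapant by value and did not pass the test. Myh11 was at 346, 2017 and 349 CPM in vehicle and 89.8 and 62.3 CPM in Xevinapant samples, a log2 fold change of -3.11 ± 0.85 (edgeR adjusted p = 0.167). Actg2, smooth muscle gamma actin, was at 644, 5973 and 188 CPM against 84.1 and 38.3 CPM, with -4.74 ± 1.36 (edgeR adjusted p = 0.203). Acta2 was at 2447, 12698 and 1921 CPM against 1032 and 493 CPM, with -2.49 ± 0.90 (edgeR adjusted p = 0.423). These 3 genes do not overlap between the groups, which held for 22.3% of all genes tested. The level in vehicle 2 was that of 1 cell. It held all 51 Myh11 and 151 Actg2 UMIs and 315 of the 321 Acta2 UMIs of that sample. The summed level of the 18 contractile genes was 9460, 38924 and 8329 CPM in vehicle and 4297 and 3287 CPM in Xevinapant samples. Without the fibroblast-gene members the Xevinapant sums were 8511 and 3284 CPM and the groups overlapped. The median log2 fold change of the 11 contractile genes then tested was -1.42. Without the contractile members, the cell of vehicle 2 among them, the sums were 6765, 4297 and 4275 CPM in vehicle samples. They were 2280 and 3287 CPM in Xevinapant samples, without overlap and without a test. Parm1 had the lowest p of the genes that were lower (log2 fold change -2.17 ± 0.54, edgeR adjusted p = 0.108).

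Across the gene lists few genes passed, to be read beside 1.79% of all genes tested. The median log2 fold change of all genes tested was -0.0021. Of the 12 contractile genes with enough counts 0 were called, with a median of -1.27. Of 16 further pericyte genes tested 0 were called, with a median of 0.30, and of 7 vasoactive genes 0, with -0.0073. Among 36 interstitial matrix genes 2 rose, Eln and Col14a1, and 0 fell, with a median of 0.54, and among 10 fibroblast markers 7 rose and 0 fell, with a median of 4.35. The fibroblast markers include Dcn, Lum and Dpt of the fibroblast-gene rule. Among 14 TGF-β and BMP genes 1 rose, Tgfbr3, with a median of -0.32, among 7 chemokine, cytokine and adhesion genes 1, Il33, with a median of 1.2, and among 2 astrocyte markers 1, Gja1, a gene that fibroblasts also carry. No gene was called among the 14 basement membrane genes tested (median -0.27), the 2 PDGF genes (-0.34), the 6 Notch genes (-0.53), the 7 angiopoietin and VEGF genes (-0.64), the 20 hypoxia and glycolysis genes (-0.15), the 17 interferon genes (-0.15), the 13 cell cycle genes (-0.12) and the 8 immediate early and heat shock genes (0.12). The vasoactive genes include the rule genes Kcnj8 and Abcc9, the PDGF genes Pdgfrb and the Notch genes Notch3. For these lists the counts and medians are therefore a description.

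The targets of Xevinapant had few UMIs in the members. Birc2, which encodes cIAP1, had 3, 1 and 2 UMIs in the vehicle samples and 1 and 7 in the Xevinapant samples. Birc3, which encodes cIAP2, had 6, 4 and 0 against 7 and 4, and Xiap had 1, 0 and 0 against 1 and 5. At this depth a difference in these genes was not detectable. Their mean levels were 26.7 ± 12.8, 54.5 ± 61.7 and 7.78 ± 9.87 CPM, against 14.6 to 35.6, 10.8 to 44.1 and 8.92 to 37.7 CPM in the other 4 classes. Tnfrsf1a, the TNF receptor gene, was at 364 ± 52.0 CPM over the samples with a log2 fold change of 0.27 ± 0.48. Of the 32 genes of the IAP, TNF receptor and NF-κB list in the files, 9 had enough counts, and 0 were called, with a median of 0.27.

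The treatment difference was then set against that in endothelial cells and fibroblasts, with the sample as a block. Against endothelial cells 10 of 4529 genes (0.221%) differed in their treatment effect by edgeR's interaction test, all with the higher effect in the members, among them C3, Eln, Cd34 and Ace, which encodes angiotensin-converting enzyme. Against fibroblasts 74 of 6904 genes (1.07%) differed, 68 of them (0.985%) with the higher effect in the members. For Lum the vehicle and Xevinapant means were 585 and 279 CPM in gated fibroblasts, and for Eln 1241 and 993 CPM, while C3 was at 377 and 1227 CPM, Gja1 at 236 and 656 CPM and Clec3b at 67.2 and 152 CPM there. Within the gated fibroblasts edgeR called 0 of 9077 genes between treatments, with 524 at an unadjusted p under 0.05, and within the endothelial cells 3 of 3766. Without the fibroblast-gene members both interaction counts were 0, with 92 and 283 genes at an unadjusted p under 0.05.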

How the data were processed

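Tumor cells were fixed and their RNA was captured with a probe kit of 10x Genomics. The authors deposited UMI counts per gene and barcode, unnormalized, for 19059 genes aligned to mm10. The file headers name Cell Ranger 7.1.0, while the labels name version 3.0 with Seurat 4.0 for their later steps. The files were cell-called but unfiltered, so the study's limits were applied to the barcodes, which needed 200 detected genes, a complexity of 0.8, and no more than 10% of UMIs from mitochondrial genes. The members and the gene lists were chosen with earlier results of these data known. Matrices named for vehicle within the Xevinapant sample were assigned by the sample's label, and all treatment results depend on this assignment.

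Counts were summed over members per joined sample. Genes were tested with edgeR 4.0.16 in R 4.3.3, with TMM, filterByExpr and an adjusted p threshold of 0.05, and checked on simulated data. Shares were compared by exact enumeration, and the 95% interval of a ratio of counts came from an exact binomial interval, for counting error only. Named genes are the 10 largest called changes each way among genes whose mean log2 CPM reached 5 and whose groups did not overlap, every listed gene that was called, the rule genes, and the 15 largest level ratios. Alternatives included DESeq2 1.42.0, no TMM, no filter, other gates, Scrublet doublets removed (3756 barcodes, 1 of them a member), thinning to 3000 UMIs and each sample left out. In the main results no doublets were removed. Of the genes on the lists, 11 had no row in the files.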

Additional observations from a re-analysis of the deposited data

Results flagged for a closer look

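For 17 named genes that were higher after Xevinapant over all 55 members, the treatment effect differed from that in another cell class by edgeR's interaction test, and each difference below is the log2 effect in the members minus that in the other class. Against gated endothelial cells it was 10.17 for Eln, 14.23 for C3 and 5.55 for Gja1. Against gated fibroblasts it was 13.98 for Eln, 12.73 for Pi16, 12.56 for Gas6, 12.31 for Sfrp1, 12.09 for Lum, 12.08 for Ccn3, 11.10 for Lbp, 10.90 for Mfap5, 10.30 for Sfrp2, 10.23 for C3 and 10.00 for Clec3b. It was 5.96 for Col14a1, 5.75 for Dcn, 4.61 for Gja1, 4.42 for Igf1, 4.40 for Tgfbr3 and 4.01 for Dpt. Where a group had 0 counts the size depends on the prior count of the fit and is no bound. No gene differed against either class without the fibroblast-gene members, with 92 and 283 genes at an unadjusted p under 0.05, and the part of these members in the result beyond their counts was not tested.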

How the results depend on the processing

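The added fit of 5 samples, with 51 called genes, gave counts within 1.5 times of that under library size without TMM (39, with the median of all genes moved to -0.32 on the log2 scale), without doublets, at 5% mitochondrial UMIs and with DESeq2. It gave 170 genes without a low-count filter (144 higher, 26 lower), 0 with at least 3 of the 4 genes, 11 with the stricter limits on other cells, 0 without fibroblast-gene members, 18 without contractile members, 19 with all 8 matrices as samples, 1 with members thinned to 3000 UMIs and 31 without the deepest member of each sample. Leaving out 1 sample gave 0 (vehicle 1+3) to 63 (vehicle 4) genes, and 25 without Xevinapant 1+2. The number of genes that differed in treatment effect from endothelial cells ran from 3 (without vehicle 2 or vehicle 4) to 31 (without Xevinapant 3+4), and was 16 without vehicle 1+3 or Xevinapant 1+2, and the number that differed from fibroblasts ran from 54 to 109. Both were 0 without fibroblast-gene members. The genes tested then numbered 3070 instead of 4529 against endothelial cells, and 6711 instead of 6904 against fibroblasts. The differences in shares, in percentage points or cells per 100, reversed in 4 cases. These were mural cells per 100 endothelial cells without vehicle 1+3 (-14.1 to 4.33 over the samples left out), the cell cycle share without vehicle 4 (-33.3 to 4.24 over the samples left out), and, with thinning, the contractile share (5.45) and the fibroblast-gene share (-3.33). The cause was not tested. Thinning left out 13 members under that depth, and 17 barcodes entered that had not been members. Of the 42 deeper members, 12 no longer met the mural rule, 8 of which had met the fibroblast-gene rule alone. Of the 18 called genes named, none reversed under the alternatives in which it was tested. The fits of 4 samples assume that a lone sample of a group would vary like the others. The alternative of matrices with at least 10 members was not run, because no matrix held that many. No paired analysis was possible because the matrix numbers of the groups share only a number and the joined samples of the groups share none. The depth of 25280 UMIs in vehicle 2 and the 55 cells limit every gene value, and joining, pool, batch date and treatment cannot be told apart further here.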
